A study of Mus musculus with 17 samples.

Results

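Messenger RNA levels of 9 genes of the integrated stress response were followed in mouse embryonic stem (ES) cells before and after induction of a forkhead transcription factor. The genes were Atf4, Atf3, Ddit3, Trib3, Chac1, Sesn2, Asns, Psat1 and Phgdh, taken as a list by gene symbol. All 9 were found among the 53588 gene symbols of the deposited tables. All 9 also passed the filter on low counts, which 19796 genes passed. Each of the 17 RNA-seq libraries came from 1 of 5 lines named iFoxA1, iFoxC1, iFoxG1, iFoxL2 and iFoxP3. Every line was made from MC1 ES cells (129S6/SvEvTac) and held, at Rosa26, the open reading frame of a single Fox factor, tagged at its C terminus with His6-FLAG and repressed by doxycycline (Dox), together with a puromycin resistance gene. At 24 h, cells had been washed 3 times with PBS, 3 h apart, to remove Dox and grown in a differentiation medium with 10% serum, with 3 libraries of iFoxA1 and 2 of each other line. At 0 h, cells were in ES medium with 15% serum, 1000 U/ml leukemia inhibitory factor (LIF), 0.1 mM non-essential amino acids, 0.1 mM β-mercaptoethanol, 0.2 µg/ml Dox and 1.0 µg/ml puromycin, with 2 libraries of iFoxA1 and 1 of each other line. The labels do not give the amino acid supplement of the differentiation medium. No line without a transgene was among the samples, so the effects of the induced factor, of removing Dox and of the new medium cannot be told apart. The labels do not say that replicates came from separate cultures, so p-values here reflect only how far these libraries differ, which may be technical.

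The integrated stress response begins when a kinase phosphorylates the translation initiation factor eIF2α, which slows protein synthesis in general while the ATF4 protein is translated more. ATF4 is a basic leucine zipper (bZIP) transcription factor whose targets serve amino acid synthesis, amino acid uptake, tRNA charging and the control of the response itself. Atf4 is regulated in large part at translation, so its mRNA level does not give its protein level. In cultured cells the response is known to follow amino acid shortage, misfolded protein in the endoplasmic reticulum (ER), lack of heme and viral RNA.

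Library totals ran from 17.7 to 37.2 M estimated counts. At 24 h, 5 libraries (iFoxA1 replicate 3 and replicate 2 of each other line) held at least 32.9 M and stood apart from the 12 others, which held at most 22.2 M. These are called the deeper libraries. In 2 of them the transgene was low. Foxa1 stood at 21.8 TPM (abundance scaled to transcript length) in iFoxA1 replicate 3, against 131.0 and 137.0 TPM in replicates 1 and 2. Foxl2 stood at 2.85 TPM in iFoxL2 replicate 2, against 78.1 TPM in replicate 1. The summed level of 6 ES cell markers ran from 3160 to 5260 TPM at 24 h and from 4870 to 6200 TPM at 0 h, and all 6 averaged at least 1 TPM. For 7 fibroblast markers the sum was 4.05 to 14.6 TPM at 24 h and 2.56 to 7.65 TPM at 0 h, and 1 of the 7 averaged at least 1 TPM. The sum of 7 endoderm markers was 2.48 to 62.0 TPM at 24 h and 1.48 to 37.0 TPM at 0 h, that of 6 trophoblast markers 9.20 to 58.3 TPM and 13.5 to 30.3 TPM, and that of 4 neural markers 10.5 to 21.3 TPM and 38.7 to 66.6 TPM. Mitochondrially encoded transcripts took 1.80% to 2.76% of counts at 24 h and 2.60% to 3.71% at 0 h. The part of these differences in the results on the 9 genes was not tested. In bulk RNA, fewer cells of a type and less RNA per cell cannot be told apart.

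The 9 genes spanned a wide range of levels per transcript length. In TPM, Asns, the asparagine synthetase, was the highest at both times, with 124.4 ± 30.5 at 24 h and 193.1 ± 41.1 at 0 h (SD, n = 11 and 6). Atf4 followed at 24 h with 70.4 ± 25.4 TPM and had 83.8 ± 19.9 TPM at 0 h. Psat1, the phosphoserine aminotransferase of serine synthesis, had 57.9 ± 11.2 TPM at 24 h and 101.9 ± 20.1 TPM at 0 h, so Atf4 and Psat1 overlapped within their spread at each time. Phgdh, the first enzyme of serine synthesis from a glycolytic intermediate, had 45.4 ± 9.59 TPM at 24 h and 40.3 ± 10.4 TPM at 0 h. Sesn2, a sestrin that senses leucine and restrains mTORC1, had 31.2 ± 7.52 TPM at 24 h and 22.7 ± 6.40 TPM at 0 h. The remaining genes were low. Ddit3, which encodes the bZIP factor CHOP, had 6.62 ± 3.67 TPM at 24 h and 9.28 ± 5.30 TPM at 0 h. Trib3, a pseudokinase induced by ATF4 and CHOP that dampens their activity, had 5.43 ± 1.37 TPM at 24 h and 9.37 ± 1.60 TPM at 0 h, and could not be separated from Ddit3 by spread. Atf3, an early bZIP factor of the response, had 1.93 ± 1.61 TPM at 24 h and 0.618 ± 0.537 TPM at 0 h. Chac1, an enzyme that breaks down glutathione, had 0.959 ± 0.362 TPM at 24 h and 1.48 ± 0.777 TPM at 0 h, overlapping with Atf3.

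In the GENCODE M21 annotation of GRCm38 (mm10), each of the 9 is a protein-coding gene. Atf4 lies at chr15:80255184-80257541 (plus strand), Atf3 at chr1:191170296-191218039 (minus) and Ddit3 at chr10:127290774-127296288 (plus). Trib3 lies at chr2:152337422-152344032 (minus), Chac1 at chr2:119351229-119354381 (plus) and Sesn2 at chr4:132492032-132510501 (minus). Asns lies at chr6:7675169-7693254 (minus), Psat1 at chr19:15904678-15947337 (minus) and Phgdh at chr3:98313170-98339990 (minus). Ddit3 lies opposite Mars (the methionyl-tRNA synthetase gene), which reached 98.5 TPM. The libraries were strand-specific, but no source used here says whether strand was used in counting, so reads of the 2 genes may not be fully separated. A second Ddit3 entry, with a much shorter transcript, shares the symbol and the locus. It was included in counts but left out of the TPM above, because few reads on so short a transcript give a high TPM. The pseudogene Phgdh-ps1, at up to 4.94 TPM, can share reads with Phgdh.

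Promoter sequence was searched for the C/EBP-ATF composite element (CARE), the sequence through which ATF4 acts with C/EBP partners. RefSeq promoters (GRCm38.p6) were matched for all 9 genes, 10 promoters in all, and the 250 bases before each start were read on both strands. The motif TGATGNAA, or TTNCATCA on the other strand, was present in 3 of the 10, in Atf3, Chac1 and Asns, and in 3.45% of 32851 promoters. Atf3 and Chac1 held the same 8 letters in the same orientation. The stretches around these matches are shown 5′ to 3′ on the strand of the gene, with the match in capitals.
Atf3, chr1:191183396-191183483, minus strand: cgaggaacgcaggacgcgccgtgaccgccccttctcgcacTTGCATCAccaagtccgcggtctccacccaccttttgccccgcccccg
Chac1, chr2:119351009-119351096, plus strand: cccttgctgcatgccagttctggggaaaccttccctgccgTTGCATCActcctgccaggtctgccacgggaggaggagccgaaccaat
Asns, chr6:7693210-7693272, minus strand: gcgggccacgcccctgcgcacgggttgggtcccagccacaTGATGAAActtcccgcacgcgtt
The match starts 110 bases before the RefSeq start used for Atf3, 193 bases before that for Chac1 and 23 bases before that for Asns. These starts are not the ends of the GENCODE loci given above. The Atf3 stretch lies inside its locus and the Asns stretch lies partly inside. The cAMP response element TGACGTCA was in 0 of the 10 promoters and in 1.55% of all promoters, and TGACGTGG, the core of the ATF6 and XBP1 sites, was in 0 of the 10 and in 0.563%. A match is a run of letters and not a measured binding site, and the 3 genes with one did not share a direction of change in what follows.

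At 24 h, 2 of the 9 genes were higher and 3 were lower on average over the 5 lines. Atf3 and Sesn2 rose, and Psat1, Trib3 and Asns fell, by edgeR's quasi-likelihood test with Benjamini-Hochberg adjusted p under 0.05 over all genes tested. Atf4, Ddit3, Chac1 and Phgdh did not pass. Over all genes, 21.7% rose and 16.1% fell in the same test. With 9 genes, the 2 that rose were near that background and the 3 that fell were above it, by too few genes to read more from. The median change of the 9 genes was -0.45 on the log2 scale, against 0.04 over all genes tested. Levels below are CPM, counts scaled to a common library total, and each change is the mean of the 5 within-line differences on the log2 scale with its standard error (SE).

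**Figure D1:**
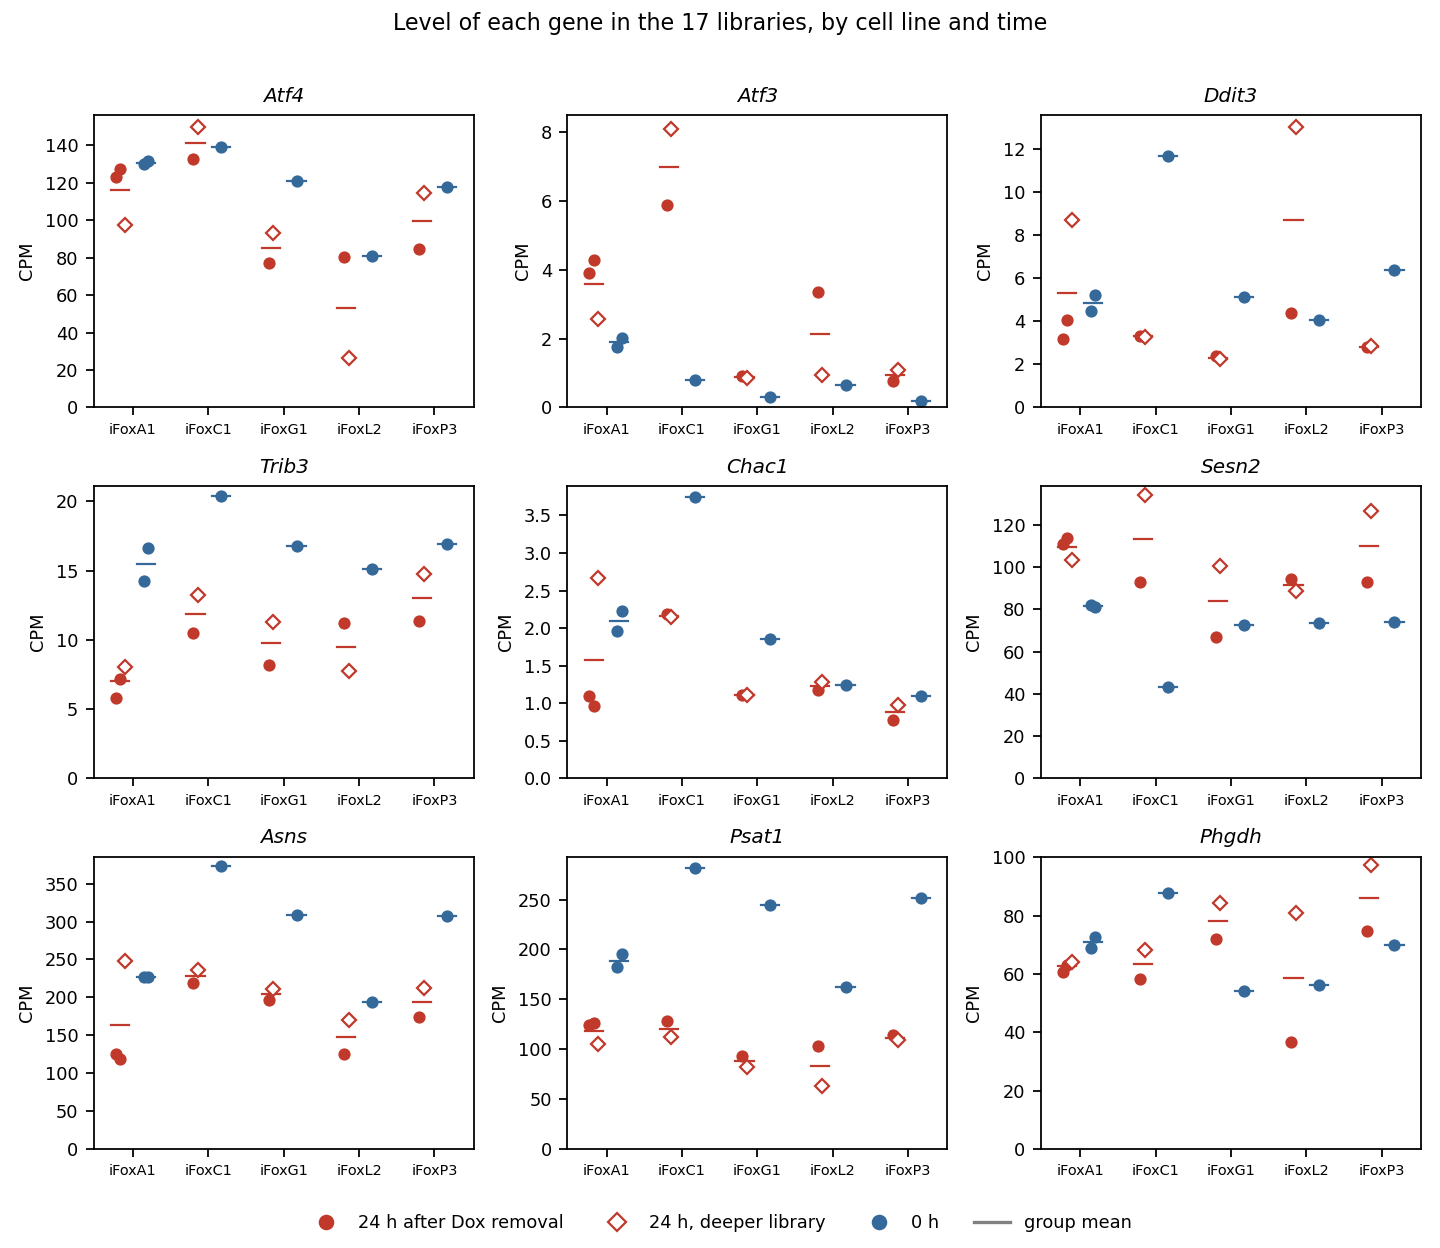
Level of each of the 9 genes in CPM (linear axis from 0, 1 panel per gene) in each of the 17 libraries, by line, with 24 h left of 0 h in each line. Points are libraries, open diamonds are the 5 deeper libraries and horizontal lines are group means. Psat1 lies between 63.5 and 128.6 CPM at 24 h, below the 162.1 to 282.1 CPM of 0 h, and Atf4 of iFoxL2 replicate 2 lies at 26.4 CPM.

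Among the transcription factors, Atf4 itself did not pass the test. It ran from 26.4 to 150.0 CPM at 24 h (median 97.5) and from 80.9 to 139.2 CPM at 0 h (median 125.5). The ranges overlapped, although 10 of 11 libraries at 24 h lay below the mean of their own line at 0 h. The exception was iFoxC1 replicate 2, which held the highest level. The average change of -0.30 ± 0.21 did not pass (adjusted p = 0.286). A single library carried the low end, since iFoxL2 replicate 2 held 26.4 CPM and the other 10 libraries at 24 h held at least 77.0 CPM. Leaving out the other iFoxL2 library of 24 h, replicate 1, gave -0.50, but that fit rests iFoxL2 at 24 h on replicate 2 alone. Replicate 1 held 80.3 CPM, against 80.9 CPM in iFoxL2 at 0 h. Over all fits that left out 1 library, the average change ran from -0.50 to -0.19.

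Atf3 rose most of the 9 genes, by 1.89 ± 0.32 on the log2 scale (adjusted p = 0.0016). It averaged 2.97 ± 2.43 CPM at 24 h and 0.961 ± 0.766 CPM at 0 h (SD, n = 11 and 6). All 11 libraries of 24 h lay above their own line at 0 h, but the ranges over lines overlapped because the lines began at different levels. In iFoxC1 the level was 5.90 and 8.11 CPM at 24 h, against 0.806 CPM at 0 h. In iFoxA1 it was 3.92, 4.30 and 2.57 CPM at 24 h, against 1.77 and 2.03 CPM at 0 h. In iFoxL2 it was 3.36 and 0.941 CPM at 24 h, against 0.649 CPM at 0 h, so the 2 replicates of 24 h differed widely. In iFoxP3 it was 0.774 and 1.10 CPM at 24 h, against 0.199 CPM at 0 h, and in iFoxG1 0.906 and 0.842 CPM against 0.308 CPM. These levels rest on few reads, from 4 to 275 counts in a library.

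Ddit3 differed widely between libraries of 24 h. It ran from 2.24 to 13.0 CPM at 24 h (median 3.27) and from 4.06 to 11.7 CPM at 0 h (median 5.18). In 9 of the 11 libraries of 24 h it lay between 2.24 and 4.37 CPM. The other 2, iFoxL2 replicate 2 with 13.0 CPM and iFoxA1 replicate 3 with 8.66 CPM, are the libraries with a low transgene. The change over all libraries was -0.58 ± 0.28 and did not pass (adjusted p = 0.124). Without these 2 libraries it was -0.89 with adjusted p = 0.000124. With the deeper libraries as a term in the fit it was -0.92 with adjusted p = 0.0186. It also passed without iFoxL2 0 h replicate 1 (-1.01, adjusted p = 0.0279). Without iFoxC1 0 h replicate 1, the 0 h library with the highest Ddit3, it was -0.28 with adjusted p = 0.527.

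**Figure D2:**
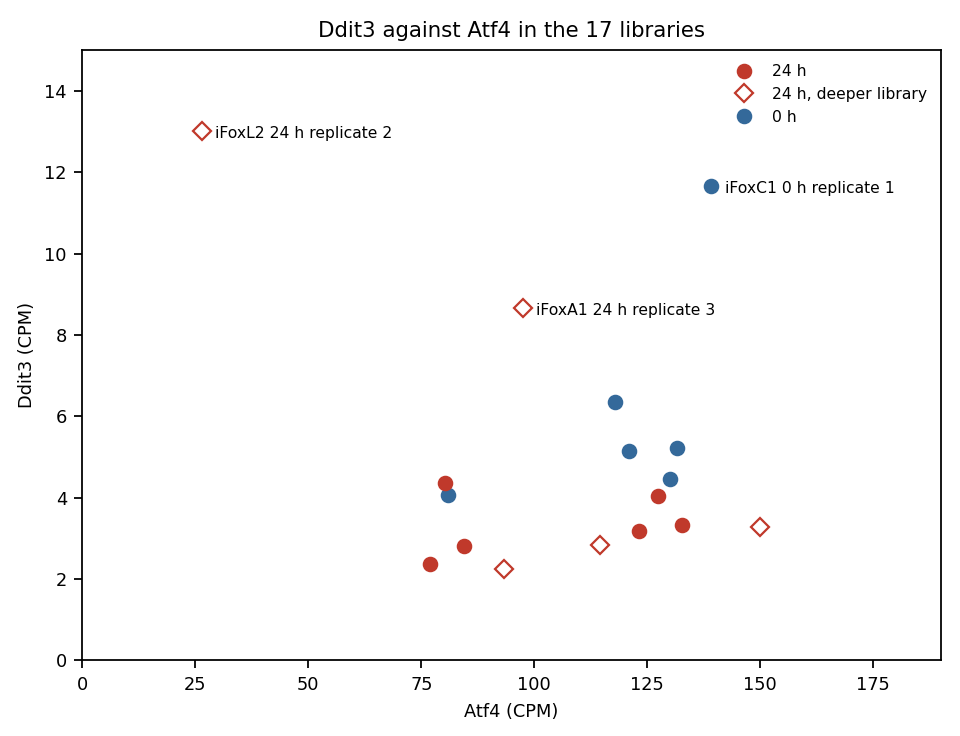
Ddit3 against Atf4, both in CPM on linear axes, in each of the 17 libraries. Open diamonds are the deeper libraries of 24 h, filled red circles the other libraries of 24 h and blue circles the libraries of 0 h. The library iFoxL2 24 h replicate 2 stands alone at 26.4 CPM of Atf4 and 13.0 CPM of Ddit3.

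Of the genes that act on the response or on glutathione, Trib3 fell and Chac1 did not pass. Trib3 averaged 9.93 ± 2.76 CPM at 24 h and 16.7 ± 2.11 CPM at 0 h (SD, n = 11 and 6), a change of -0.75 ± 0.14 (adjusted p = 0.00233). All 11 libraries of 24 h lay below their own line at 0 h, and only iFoxP3 replicate 2, with 14.8 CPM, reached the range of the 0 h libraries, which began at 14.3 CPM. Chac1 averaged 1.41 ± 0.621 CPM at 24 h and 2.02 ± 0.950 CPM at 0 h, with 9 of 11 libraries below their own line. Its change of -0.45 ± 0.24 did not pass (adjusted p = 0.164). The highest level of 24 h was the 2.66 CPM of iFoxA1 replicate 3, against 1.09 and 0.967 CPM in replicates 1 and 2, and without that library the change was -0.58 with adjusted p = 0.00815. Chac1 had 16 to 90 counts in a library.

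Sesn2 rose by 0.58 ± 0.12 (adjusted p = 0.00511). It averaged 102.3 ± 18.6 CPM at 24 h and 71.1 ± 14.3 CPM at 0 h, and 10 of 11 libraries of 24 h lay above their own line at 0 h. The exception was iFoxG1 replicate 1, with 67.1 CPM against 72.8 CPM in iFoxG1 at 0 h. The low 0 h library of iFoxC1, with 43.1 CPM, weighed on this result. Without it the change was 0.38 with adjusted p = 0.0556.

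The 3 enzymes of amino acid synthesis differed from each other. Psat1 fell on average and its ranges did not overlap: 63.5 to 128.6 CPM at 24 h (median 108.8) and 162.1 to 282.1 CPM at 0 h (median 220.2). The change was -1.10 ± 0.11 (adjusted p = 7.09e-05), the smallest adjusted p of the 9. In iFoxG1 it stood at 92.7 and 82.6 CPM at 24 h, against 245.0 CPM at 0 h, and in iFoxA1 at 124.4, 125.9 and 105.2 CPM, against 181.9 and 195.3 CPM. Asns fell by 0.57 ± 0.17 on the log2 scale (adjusted p = 0.0228), with 185.2 ± 46.0 CPM at 24 h and 272.9 ± 67.7 CPM at 0 h. In CPM, the 1 library above its own line was iFoxA1 replicate 3, with 247.9 CPM, against 125.3 and 119.0 CPM in the other libraries of iFoxA1 at 24 h and 227.3 and 226.6 CPM at 0 h. In TPM the same library stood at 124.4, below the 166.9 and 176.8 TPM of iFoxA1 at 0 h. Phgdh averaged 69.1 ± 15.8 CPM at 24 h and 68.2 ± 12.3 CPM at 0 h. Its change of 0.05 ± 0.16 did not pass (adjusted p = 0.841), and 5 of 11 libraries lay above and 6 below their own line. The sign of this small difference turned in several other fits.

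**Figure D3:**
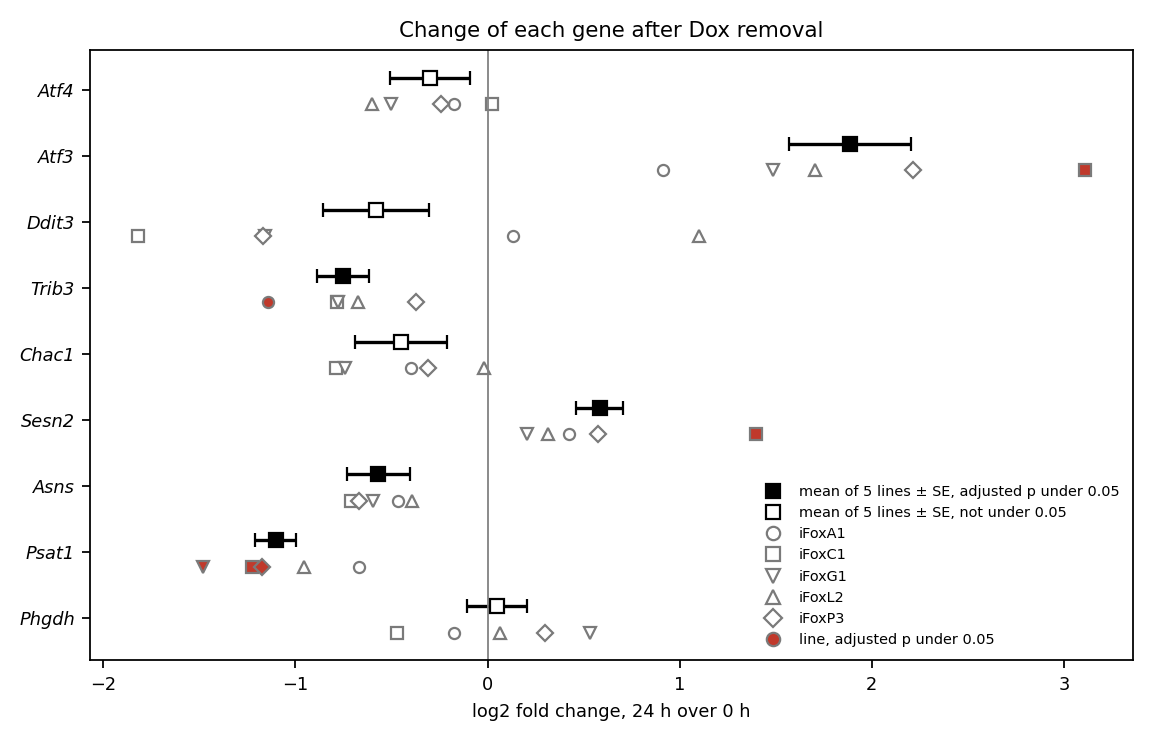
Change of each of the 9 genes from 0 h to 24 h as log2 fold change, 24 h over 0 h. Squares are the mean of the 5 lines with its SE and grey-edged symbols are single lines; filled symbols passed an adjusted p of 0.05. Atf3 and Sesn2 lie right of 0 in every line, and Psat1, Trib3 and Asns lie left of 0 in every line.

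Within single lines, 6 of 45 tests of the 9 genes passed, and over all genes 7.28% of such tests passed. DESeq2 called 9 of 45, beside 12.4% over all genes, adding Psat1 in iFoxA1 and iFoxL2 and Ddit3 in iFoxC1. Psat1 accounted for 3 of the 6, with -1.48 ± 0.25 in iFoxG1 (adjusted p = 0.0101), -1.23 ± 0.25 in iFoxC1 (adjusted p = 0.0162) and -1.18 ± 0.25 in iFoxP3 (adjusted p = 0.0266). In iFoxA1 (-0.67, adjusted p = 0.0511) and iFoxL2 (-0.96, adjusted p = 0.0644) it missed the threshold by edgeR. The other 3 were Atf3 in iFoxC1 (3.11 ± 0.75, adjusted p = 0.0323), Sesn2 in iFoxC1 (1.40 ± 0.30, adjusted p = 0.0209) and Trib3 in iFoxA1 (-1.14 ± 0.24, adjusted p = 0.0159). Each of these lines but iFoxA1 has a single library at 0 h, which was assumed to vary like the others. Each of the 6 calls was lost when some single library was left out. Trib3 in iFoxA1 lost it in 3 of 17 such fits (without iFoxA1 0 h replicate 1 or 2 or 24 h replicate 1, adjusted p up to 0.142). Sesn2 in iFoxC1 lost it without iFoxC1 24 h replicate 2 (adjusted p = 0.111), and Psat1 in iFoxG1 without iFoxG1 24 h replicate 2 (adjusted p = 0.0809). Psat1 in iFoxC1 lost it without either iFoxC1 library of 24 h (up to 0.0956), and Psat1 in iFoxP3 without either iFoxP3 library of 24 h or either iFoxA1 library of 0 h (up to 0.115). Atf3 in iFoxC1 lost it in 8 of 16 fits, without either iFoxA1 library of 0 h, iFoxA1 24 h replicate 1, either library of 24 h of iFoxC1 or iFoxG1, or iFoxP3 24 h replicate 2 (adjusted p up to 0.13). The number of calls ranged from 3 to 11 over fits that left out 1 library, beside 3.22% to 12.9% of such tests over all genes. It was 3 without iFoxA1 0 h replicate 1, without iFoxA1 0 h replicate 2, without iFoxC1 0 h replicate 1 and without iFoxC1 24 h replicate 2. Without iFoxC1 0 h replicate 1 only 36 tests remain and the 3 calls in iFoxC1 drop by construction, since that line then has no 0 h library. It was 11 when either iFoxL2 24 h replicate 1 or iFoxA1 24 h replicate 3 was dropped, and 10 when iFoxL2 24 h replicate 2 was.

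The change was not shown to differ between lines for any of the 9 genes. An F test of the difference among the 5 changes called 0 of 9 (edgeR), where 1.00% of all genes were called. At an unadjusted p under 0.05 it had 0 of 9, beside 14.1% of all genes, and DESeq2 called 0 of 9, beside 8.20%. The smallest adjusted p was 0.385, for Ddit3. Changes in 1 line against the mean of the 4 others were called in 0 of 45 tests by edgeR, beside 0.857% over all genes. DESeq2 called 0 of 45, beside 2.71%. At an unadjusted p under 0.05 edgeR had 3 of 45, beside 9.48% of such tests over all genes. At 0 h the lines differed in 0 of 9 genes by edgeR, while 0.495% of all genes were called. An unadjusted p under 0.05 was reached by 1 of 9, beside 12% of all genes. DESeq2 called 1 of 9 at 0 h, beside 6.32% of all genes. The called gene was Atf3, which stood at 1.77 and 2.03 CPM in iFoxA1 and at 0.199 to 0.806 CPM in the other lines.

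After 24 h, a line differed from the mean of the 4 others in 2 of 45 tests, and 4.75% of such tests were called over all genes. Atf3 was higher in iFoxC1 than in the others by 2.14 ± 0.36 on the log2 scale (adjusted p = 0.0103). Trib3 was lower in iFoxA1, with 5.80, 7.15 and 8.04 CPM, than in the other lines, which held 7.71 to 14.8 CPM (-0.64 ± 0.19, adjusted p = 0.0476). The Trib3 call held in 5 of 17 fits that left out a library (without iFoxC1 0 h replicate 1, iFoxP3 0 h replicate 1, iFoxG1 24 h replicate 1, iFoxA1 24 h replicate 3 or iFoxL2 24 h replicate 2) and was lost in the 12 others (adjusted p up to 0.2). It was also lost with RLE size factors (adjusted p = 0.053) and with no filter on low counts (adjusted p = 0.0915). The Atf3 call was lost without either iFoxC1 library of 24 h (up to 0.224). DESeq2 called 5 of 45, beside 7.66% over all genes, with Atf3 in iFoxG1, Atf4 in iFoxL2 and Ddit3 in iFoxL2 besides these 2.

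The deeper libraries were also set against the other 24 h libraries, with line as a term. By edgeR 0 of 9 genes passed, where 20.9% of genes passed, with 3 of 9 at an unadjusted p under 0.05, beside 37.1% of all genes. DESeq2 called 2 of 9, Asns and Psat1, where it called 25.8% of all genes. By edgeR, Asns was 0.42 ± 0.13 higher in the deeper libraries (adjusted p = 0.0551), Phgdh 0.36 ± 0.15 higher (adjusted p = 0.112) and Psat1 differed by -0.29 ± 0.09 (adjusted p = 0.0583), all on the log2 scale. For Asns the direction depended on the unit. In TPM, Asns was lower in the deeper library of iFoxC1 (128.5 against 173.7), iFoxG1 (115.2 against 177.6), iFoxL2 (85.9 against 111.9) and iFoxP3 (115.4 against 145.7). In iFoxA1 it was higher in the deeper library (124.4 against 99.4 and 90.3 TPM). Without these 5 libraries, all 9 genes were called, 2 rising and 7 falling, but so were 63.2% of all genes, since the spread then rests on the replicates of iFoxA1 alone. In that fit Atf4 changed by -0.26 and Phgdh by -0.18. With the deeper libraries as a term, 5 of the 9 fell, where 18.8% of all genes fell. Without the pair of libraries with a low transgene, 5 of the 9 fell, where 24.4% of all genes fell. The additional genes were Ddit3 and Chac1.

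The deeper libraries also stood apart in which transcripts of a gene were credited. Psat1-201 made up 28.1% to 40.3% of Psat1 TPM in the 5 deeper libraries, against 71.8% to 92.9% in the 6 other libraries of 24 h and 85.0% to 96.9% at 0 h. The deeper libraries did not overlap with either of the other sets, while those sets overlapped with each other. The short transcript Phgdh-202 was credited with 22.2% to 33.4% of Phgdh TPM in the deeper libraries and with 0 counts in the 12 others. Asns-207 had 0 counts in the deeper libraries and 10.0% to 27.0% of Asns TPM in the other libraries of 24 h. The reads behind Phgdh-202 were few, 72.7 to 126.5 estimated counts. Shares of transcripts were therefore not compared between 24 h and 0 h, and the changes above rest on counts summed over all transcripts of a gene.

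**Figure D4:**
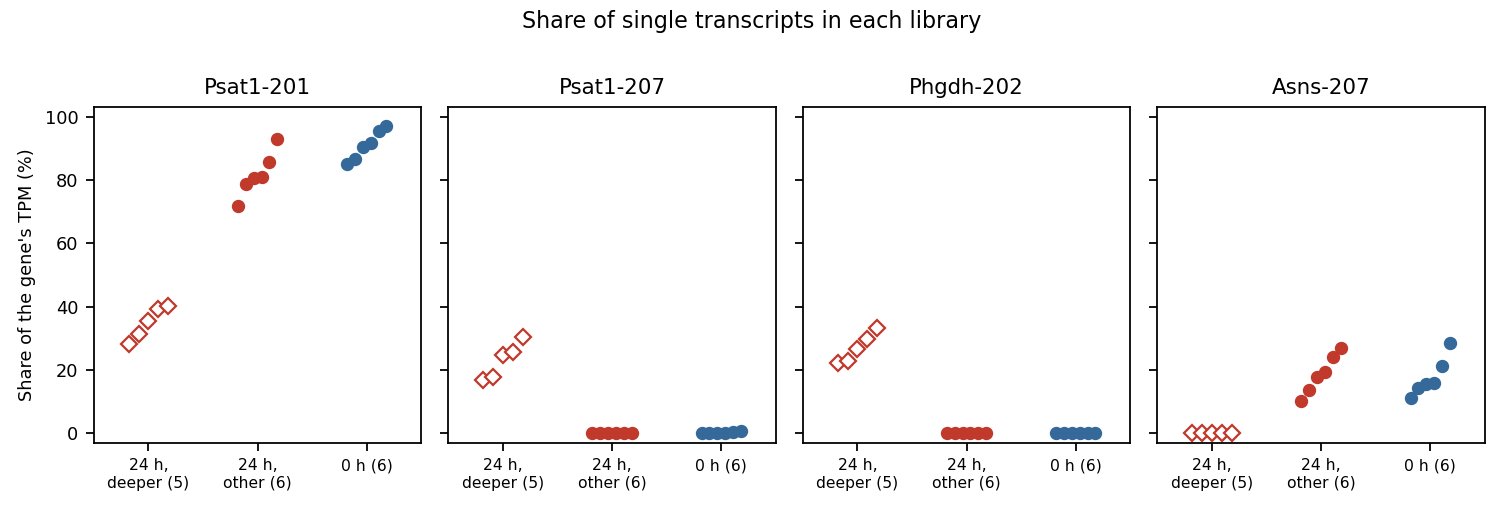
Share of a gene's TPM (percent, linear axis) held by 4 single transcripts of Psat1, Phgdh and Asns in each library, for the 5 deeper libraries of 24 h, the 6 other libraries of 24 h and the 6 libraries of 0 h. Points are libraries, sorted by value within a group. Psat1-201 lies at or below 40.3% in the deeper libraries and at or above 71.8% in the others.

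Around the 9 genes, 75 other genes of the pathway were listed in 6 groups, and 74 were tested. Of these 15 rose and 22 fell, beside 21.7% and 16.1% of all genes, and their median change was -0.02 against 0.04 over all genes. Among the kinases, phosphatase subunits and subunits of eIF2 and eIF2B, 2 of 13 rose and 4 fell. Ppp1r15a, which brings a phosphatase to eIF2α, averaged 35.0 ± 9.66 CPM at 24 h and 20.7 ± 3.15 CPM at 0 h (change 0.78 ± 0.18, adjusted p = 0.00773). Eif2ak2, the kinase PKR that binds double-stranded RNA, fell (-0.54 ± 0.13, adjusted p = 0.0112), as did Eif2s1, eIF2α itself (-0.38 ± 0.08, adjusted p = 0.00601). Among 13 bZIP factors, 4 rose and 0 fell. Jun rose by 1.93 ± 0.18 (adjusted p = 6.77e-05) and the C/EBP factor Cebpd by 2.44 ± 0.17 (adjusted p = 1.31e-05). Fosl1 rose by 3.67 ± 0.77 (adjusted p = 0.00505), with 1.69 ± 1.16 CPM at 24 h and 0.149 ± 0.067 CPM at 0 h.

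Among genes of amino acid and one-carbon synthesis, 1 of 13 rose and 6 fell. Psph, which follows Psat1 in the serine pathway, averaged 22.5 ± 4.78 CPM at 24 h and 47.1 ± 10.9 CPM at 0 h (-1.14 ± 0.09, adjusted p = 2.67e-05). Aldh1l2, a mitochondrial folate enzyme, fell to 0.778 ± 0.274 CPM at 24 h, against 3.11 ± 0.466 CPM at 0 h (-2.10 ± 0.19, adjusted p = 4.29e-05), and Cbs, the cystathionine β-synthase, rose by 1.08 ± 0.18 (adjusted p = 0.00164). The list of cytosolic tRNA charging held 13 genes, among them Xpot, which serves tRNA export and not charging. Of these 13 genes, 0 rose and 6 fell, with Nars at -0.72 ± 0.08 (adjusted p = 0.000213), Tars at -0.65 ± 0.06 (adjusted p = 7.88e-05) and Lars at -0.56 ± 0.06 (adjusted p = 0.000106). The serine pathway was therefore uneven, with Psat1 and Psph lower at 24 h and Phgdh without a call.

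Amino acid transporters and the remaining targets went both ways. Of 11 transporters 4 rose and 3 fell. Slc38a2, the SNAT2 carrier of neutral amino acids, averaged 583.5 ± 53.5 CPM at 24 h and 206.4 ± 22.4 CPM at 0 h (1.52 ± 0.07, adjusted p = 1.67e-06). Slc38a1 rose by 0.71 ± 0.09 (adjusted p = 0.000305), and Slc7a1, a carrier of cationic amino acids, fell (-0.61 ± 0.05, adjusted p = 3.97e-05). Of 14 other reported targets of ATF4 or CHOP that were tested, 5 rose and 3 fell. Sqstm1, an autophagy receptor, rose by 0.77 ± 0.07 (adjusted p = 6.36e-05), Bbc3, the death gene PUMA, by 0.84 ± 0.15 (adjusted p = 0.00183), and Nupr1 fell (-1.36 ± 0.16, adjusted p = 0.000194). Without the pair of libraries with a low transgene, where 28.4% of all genes rose and 24.4% fell, 5 of the 14 other targets fell and 3 of the 13 synthesis genes rose.

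**Figure D5:**
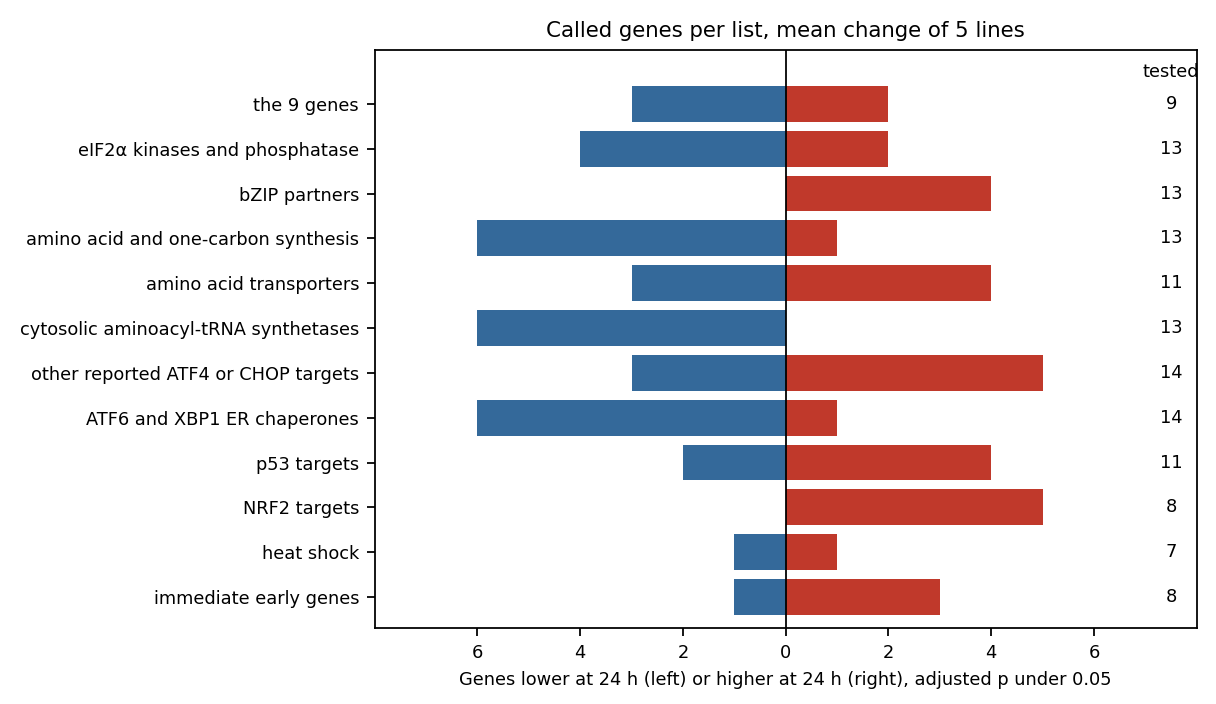
Number of genes called in the average change over the 5 lines for the 9 genes and for 11 lists, lower at 24 h to the left and higher at 24 h to the right (linear axis from 0), with the number tested at the right edge. In the list labelled cytosolic aminoacyl-tRNA synthetases, which also holds the tRNA export gene Xpot, 6 of 13 genes were lower and 0 higher. Among NRF2 targets 5 of 8 were higher and 0 lower.

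The 2 libraries with a low transgene and a high Ddit3 also held high levels of several other reported targets. Of the 14 tested, 5 lay above the range of the 9 other libraries of 24 h in both libraries, 0 lay below it in both and 9 did neither. In other lists, 3 of 13 genes of amino acid and one-carbon synthesis lay above the 9 others in both, and 0 below. Of 11 targets of p53, 5 lay below in both and 0 above, and of 8 NRF2 targets 3 lay below and 0 above. The share over all genes was not counted, so neither these counts nor those of the markers below have a background. Of the 5 reported targets above the range, 3 are given here, picked after their values were seen. Ddit4, an inhibitor of mTORC1, stood at 288.5 CPM in iFoxA1 replicate 3 and 275.0 CPM in iFoxL2 replicate 2, against 60.6 to 117.3 CPM in the 9 other libraries of 24 h. Ero1l, an ER oxidase, stood at 267.3 and 400.3 CPM in these libraries, against 46.7 to 76.3 CPM in the 9 others. Stc2 stood at 28.9 and 40.7 CPM, against 4.02 to 7.40 CPM. Trib3, at 8.04 and 7.71 CPM, stayed within the 5.80 to 14.8 CPM of the 9 others, and Atf3, at 2.57 and 0.941 CPM, within their 0.774 to 8.11 CPM. In CPM, Atf4 was below the range of the 9 others in iFoxL2 replicate 2 and within it in iFoxA1 replicate 3. The placing within the range depended on the unit. In TPM, Trib3 stood at 3.51 and 3.10, below the 9 others, whose lowest was 4.67. Atf4 in iFoxA1 replicate 3 was at 55.4 TPM, below their lowest of 59.7. Atf3 in iFoxL2 replicate 2 was at 0.428 TPM, just below their lowest of 0.435. In these libraries Ddit3 thus did not go with Atf4, Atf3 or Trib3, and the part of the low transgene was not tested. Of the 6 ES cell markers, 3 were also above the 9 others in both libraries, among them Pou5f1 with 1236 and 1560 CPM, against at most 1128 CPM, and Zfp42 with 506.1 and 490.8 CPM, against at most 425.6 CPM. The mitochondrial transcript mt-Co1 stood at 14080 and 11720 CPM, against at most 7915 CPM, while 1 of the 13 mitochondrial transcripts, mt-Nd4l, was below the 9 others in both. Their part in these levels was not tested.

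For each of the 9 genes, the protein-coding genes with the most similar profile over the 17 libraries were sought among 10207 genes, by the root mean square difference of centred log2 CPM. Psat1 was closest to Mpc1, a subunit of the mitochondrial pyruvate carrier (0.169), then Psph (0.189) and Nars (0.212). Asns was closest to Eef2kmt (0.170), Sesn2 to Tpm3-rs7 (0.155), Phgdh to Aplp1 (0.169) and Trib3 to Tmem120a (0.177). Atf4 was less closely matched, by Map3k10 (0.294) and the transporter gene Slc1a4 (0.302). Ddit3 was closest to Vat1 (0.281), followed by the lysosomal genes Asah1 (0.290) and Ctsb (0.294). Chac1 was closest to Stac2 (0.231), and Atf3, the most variable, to Crim1 (0.581). Among the 9 themselves the closest pair was Asns and Trib3 (0.346). All of these profiles share the time difference and the deeper libraries, so a small difference describes likeness in these libraries only.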

How the data were processed

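Polyadenylated RNA of 5 mouse ES cell lines was sequenced with a strand-specific kit, per the labels' protocols. Per the submitters' processing notes, Salmon 1.4.0 and DESeq2 1.30.1 were used with mm10; no source used here names the annotation. The authors deposited Salmon's estimated counts per transcript, not normalized. They also deposited TPM (scaled to transcript length and library total), which keeps no depth. Of 137271 transcripts, 137225 were matched by identifier to GENCODE M21, and the 46 others held at most 0.0133% of a library's counts. Both units were summed per gene symbol, and estimated counts were rounded to whole numbers.

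Genes were filtered with filterByExpr by group, scaled by TMM, and their quasi-likelihood models were fitted in edgeR 4.0.16 under R 4.3.3 with 10 groups, which left 7 residual degrees of freedom. A line with 1 library at 0 h was assumed to vary like the others. P-values were adjusted by Benjamini-Hochberg over all genes tested in a contrast, at a threshold of 0.05. The SE was derived from the F statistic. The main edgeR fit was tried on simulated counts for the average change and for the changes in iFoxA1 and iFoxC1. The other contrasts and the alternative fits were not tried on simulated counts. Alternatives were RLE size factors, no filter on low counts, DESeq2 1.42.0, an additive fit of line and time, the replicate number as a block, the deeper libraries as a term or left out, 2 libraries with a low transgene left out, and each library left out in turn. Ddit3 without its second entry was added after seeing the data.

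The members and gene lists were chosen with earlier results of these data known. All 9 members are named, and in each list the 3 genes with the smallest adjusted p. For likeness, protein-coding genes had to average 5 CPM or more. The depth of 17.7 to 37.2 M counts gives the low genes Atf3 and Chac1 the least precise values.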

Additional observations from a re-analysis of the deposited data

Results flagged for a closer look

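Among the 6 libraries of 0 h, 3 values lay further from the rest than Dixon's critical ratio of 0.625 allows. That ratio assumes independent draws from a single population. These libraries come from different lines, with replicates of iFoxA1 among them, so no chance rate can be given for the flag. How many of all genes the same rule would flag was not counted. Atf4 was low in iFoxL2, with 80.9 CPM, where the 5 others held 117.9 to 139.2 CPM. Ddit3 was high in iFoxC1, with 11.7 CPM, where the 5 others held 4.06 to 6.35 CPM. Sesn2 was low in the same iFoxC1 library, with 43.1 CPM, where the 5 others held 72.8 to 82.1 CPM. Each of these is the single 0 h library of its line, so the change of that line rests on it.

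For 2 genes, lines moved in opposite directions with all their libraries. The share of all genes that meet this rule was not counted, so the flag has no background. Every line but iFoxA1 has a single library at 0 h, which makes the rule easy to meet. Ddit3 was lower at 24 h in every library of iFoxC1 (-1.82 on the log2 scale), iFoxG1 (-1.16) and iFoxP3 (-1.17) and higher in every library of iFoxL2 (1.10). In iFoxL2 this rests largely on replicate 2, a library with a low transgene, at 13.0 CPM. Replicate 1 held 4.37 CPM, against 4.06 CPM at 0 h. With 1 library left out, the Ddit3 change in iFoxL2 ran from 0.12 to 1.68. Phgdh was lower at 24 h in iFoxA1 (-0.18) and iFoxC1 (-0.47) and higher in iFoxG1 (0.53) and iFoxP3 (0.30). The F test of the difference among lines by edgeR did not pass for either gene, with adjusted p = 0.385 for Ddit3 and 0.789 for Phgdh.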

How the results depend on the processing

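The directions of Atf3, Sesn2, Psat1, Trib3 and Asns on average were the same in every alternative run, and their calls were kept in all of these but 1, Sesn2 without iFoxC1 0 h replicate 1. Over fits that left out 1 library, the number of the 9 genes rising was 1 to 2, falling 3 to 5, called within lines 3 to 11, called for a line-specific change 0 to 1, called against the other lines at 24 h 0 to 9, called among lines at 0 h 0 to 1 and called between deeper and other libraries 0 to 1. The share called over all genes moved between these fits too, so the ranges do not describe the 9 genes alone. Against the other lines at 24 h, 5 tests were called without iFoxA1 24 h replicate 3, beside 7.81% over all genes. Without iFoxA1 24 h replicate 1 it was 1, beside 2.68%. The 9 calls came without iFoxL2 24 h replicate 1, where the share over all genes was also the highest of these fits. For the 2 to 5 libraries left out together, the cause of the larger counts was not tested. The exception is the fit without the 5 deeper libraries, where the spread rests on iFoxA1 alone. That fit called 7 falling (31.4% of all genes), 33 within lines (44.3% of such tests over all genes), 8 for the difference among lines (50.9%), 19 line-specific (23.7%), 24 at 24 h (29.5%), 8 at 0 h (54.5%) and 35 falling genes of the pathway. Without the 2 libraries with a low transgene the counts were 5 falling (24.4%), 22 within lines (26.5%), 2 for the difference among lines (4126 of 19686 genes), 3 line-specific (8.33%), 16 at 24 h (17.1%) and 5 at 0 h (19.4%). The deeper libraries as a term gave 5 falling (18.8%) and 12 within lines (14.6%). RLE size factors gave 1 call at 24 h (4.81%). No filter gave 1 call at 24 h (1.91%), 14 falling pathway genes (6.79% of all genes) and 1 call between deeper and other libraries (12.3%). That fit tests more genes and moves the median of all genes to 0.12. DESeq2 gave 5 calls at 24 h (7.66%), 1 at 0 h (6.32%) and 2 between deeper and other libraries (25.8%).

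Whether replicate numbers pair libraries of 0 h with those of 24 h could be checked only with the 0 h libraries of iFoxA1. Each other line has a single 0 h library, so pairing within it could not be tested. The iFoxA1 libraries of 0 h and libraries of 24 h with the same number correlated at 0.003 to 0.041 in their deviations from the group means. Among libraries of 24 h with the same number, the 12 pairs without iFoxA1 correlated at 0.551 to 0.757. In a group of 2 libraries the 2 deviations are mirror images. The pairs of replicate 1 and those of replicate 2 therefore repeat the same values and are not separate results. The 4 pairs with iFoxA1 replicate 1 correlated at 0.491 to 0.558, but the 4 with iFoxA1 replicate 2 at -0.566 to -0.509. Outside iFoxA1, replicate 2 is the deeper library. With the replicate number as a block, 5 of the 9 genes fell (17.9% of all genes), 12 tests passed within lines (12.1%) and 6 at 24 h (9.18%), and Ddit3 (-0.85, adjusted p = 0.0199) and Chac1 (-0.61, adjusted p = 0.014) were the added falling genes.

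Signs turned only for changes that had not passed over all libraries. Phgdh on average was -0.11 under the block, -0.14 with the term, -0.18 without the deeper libraries (adjusted p = 0.000718), -0.086 without the 2 libraries, and -0.093 to 0.18 with 1 library left out. In the same order, Phgdh in iFoxL2 was -0.17, -0.18, -0.60 and -0.61, and -0.61 to 0.52, and Ddit3 in iFoxA1 -0.43, -0.17, -0.41 and -0.43, and -0.43 to 0.40. Atf4 in iFoxC1 was -0.017 with RLE factors and with DESeq2, -0.11 without the deeper libraries, -0.001 without the 2 libraries, and -0.12 to 0.11 with 1 left out. Without the deeper libraries Sesn2 in iFoxG1 was -0.11 (-0.12 to 0.47 with 1 left out) and Atf4 in iFoxL2 0.013. Chac1 in iFoxL2 was 0.009 with no filter (-0.081 to 0.046 with 1 left out).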

Other observations

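Stress genes outside the ATF4 branch went different ways at 24 h. Of 14 ER chaperones and related targets of ATF6 and XBP1, 1 rose and 6 fell. Hsp90b1, an ER chaperone of the HSP90 family, averaged 658.1 ± 111.1 CPM at 24 h and 868.3 ± 82.0 CPM at 0 h (-0.46 ± 0.08, adjusted p = 0.0013), and the disulfide isomerase gene Pdia6 changed by -0.58 ± 0.11 (adjusted p = 0.00262) and Pdia4 by -0.39 ± 0.08 (adjusted p = 0.00342), all by edgeR. Of 8 targets of the oxidative stress factor NRF2, 5 rose and 0 fell. Gclc, of glutathione synthesis, averaged 72.0 ± 14.2 CPM at 24 h and 44.0 ± 3.95 CPM at 0 h (0.70 ± 0.15, adjusted p = 0.00551), G6pdx rose by 0.50 ± 0.09 (adjusted p = 0.00189) and Srxn1 by 0.43 ± 0.10 (adjusted p = 0.00717).

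Of 11 targets of p53, 4 rose and 2 fell. Bbc3 and Zmat3 rose (0.73 ± 0.11 for Zmat3, adjusted p = 0.00103), and Sesn1, the relative of Sesn2 in the sestrin family, fell to 25.6 ± 6.07 CPM at 24 h, against 39.5 ± 5.17 CPM at 0 h (-0.69 ± 0.09, adjusted p = 0.000463). The sestrin genes Sesn1 and Sesn2 thus went opposite ways. Of 8 immediate early genes tested, 3 rose and 1 fell, with Egr1 at 6.81 ± 5.16 CPM at 24 h and 0.348 ± 0.093 CPM at 0 h (3.89 ± 0.33, adjusted p = 3.3e-05), Fos at 2.06 ± 0.50 (adjusted p = 0.00988) and Zfp36 at 1.44 ± 0.27 (adjusted p = 0.00275) on the log2 scale. Of 7 heat shock genes 1 rose, Hspa1a (1.35 ± 0.29, adjusted p = 0.00604), and 1 fell, Hspa8 (-0.26 ± 0.09, adjusted p = 0.039), whose call was lost in 11 of 17 fits that left out a library. Hspb1 changed by 0.23 ± 0.11 and did not pass (adjusted p = 0.133). Without the 2 libraries of 24 h with a low transgene, where 28.4% of all genes rose and 24.4% fell, 7 targets of p53 rose, 5 immediate early genes rose and 2 fell, and 2 heat shock genes rose and 2 fell.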
